A study of Mus musculus with 21 samples.

Results

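Tuft cells of the thymus were compared with tuft cells of the gall bladder in the mouse, by RNA sequencing of sorted cells. The comparison took 7 of the 21 libraries of the series, chosen by tissue in the sample titles: 4 of thymus tuft (libraries 1 to 4) and 3 of gall bladder tuft (libraries 1, 3 and 4). All 43432 gene identifiers of the count tables entered, of which 19850 had enough counts to be tested. The pair was picked because it held the most called genes of all tissue pairs of the series, so its total is a description and not a finding.

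The series measured messenger RNA of sorted tuft cells from 5 mouse tissues and of non-tuft cells from the small intestine. Both groups used here came from naive male C57BL6.Il25(Flare25/Flare25) mice of 12 weeks, 1 mouse per library, so every animal, gall bladder ones included, carried the reporter on both alleles. Flare25 is a fluorescent reporter placed in Il25, the gene of the tuft cell cytokine interleukin 25, and cells were sorted as DAPI-, CD45-, EPCAM+ and Flare25+. The gate takes cells with an active Il25 reporter, so Il25 itself is no independent readout, and a tuft cell without reporter signal would be missed. A further gall bladder replicate was discarded by the submitters for failed quality control. Thymus cells were freed by Liberase with DNase and taken from the light fraction of a Percoll gradient, whereas gall bladder epithelium was released with DTT and EDTA, so tissue and dissociation cannot be told apart. No non-tuft cells of either organ entered the comparison.

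Tuft cells are rare epithelial cells that sense luminal compounds through a taste-like pathway, in which a G protein releases calcium stores and opens the cation channel TRPM5. The transcription factor POU2F3 is needed for their formation. In the thymic medulla, epithelial cells present self peptides on MHC molecules to developing T cells, and AIRE lets them express genes otherwise restricted to single organs. The gall bladder is a foregut-derived sac lined by an absorptive epithelium that stores and concentrates bile.

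The labels could be set against named markers. Aire, the thymic regulator of tissue-restricted genes (ENSMUSG00000000731, GRCm38 chromosome 10, 78030022 to 78043610), was at 258, 253, 272 and 169 CPM in thymus tuft libraries 1 to 4, against 0.692, 0 and 0.447 CPM in gall bladder tuft libraries 1, 3 and 4. CPM, the usual unit for counts scaled by depth, is a gene's count relative to the total of its library, here with totals adjusted by the TMM method. Sox17, a transcription factor of the biliary tract (ENSMUSG00000025902, GRCm38 chromosome 1, 4490931 to 4497354), was at 0.124, 0.196, 0.106 and 0 CPM in thymus tuft and at 77.5, 62.5 and 67 CPM in gall bladder tuft. Each marker was thus high in all libraries of its own organ and below 1 CPM in all of the other. The log2 fold change, thymus tuft over gall bladder tuft, was 9.24 ± 1.49 (SE) for Aire and -9.30 ± 1.68 for Sox17 (adjusted p = 0.000197 and 0.00054, edgeR quasi-likelihood test with Benjamini-Hochberg adjustment). Because both genes were given as markers of the pair, these values check the labels and are no result.

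Both groups also carried the genes that define tuft cells. Pou2f3 (ENSMUSG00000032015, GRCm38 chromosome 9, 43123939 to 43210369) was at 482, 520.3, 543 and 542 CPM in thymus tuft and at 265, 337 and 469.6 CPM in gall bladder tuft, a log2 difference of 0.55 ± 0.24 that was not called (edgeR adjusted p = 0.0851). Il25 (chromosome 14, 54932695 to 54935837) was at 36, 32.8, 9.03 and 9.32 CPM in thymus tuft and at 24.6, 43.8 and 8.11 CPM in gall bladder tuft, with overlapping groups. Il25 was also the most variable of these genes within each organ. Spib, a transcription factor gene of tuft cells, was at 1235 ± 122 CPM in thymus tuft (SD, n = 4) and 1275 ± 165 CPM in gall bladder tuft (SD, n = 3). Ptprc, which encodes CD45, was at 53.3 to 74.7 CPM in thymus tuft and 94.9 to 171 CPM in gall bladder tuft, so its RNA was detected in every library although CD45-positive cells were gated out.

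Summed gene counts were 38659882 to 51153413 per thymus tuft library and 29031373 to 45773963 per gall bladder tuft library. A thymus tuft library came from 1350 to 1900 sorted cells and a gall bladder tuft library from 1750 to 2700. Library values of log2 CPM correlated at 0.859 to 0.902 within thymus tuft, 0.859 to 0.864 within gall bladder tuft and 0.686 to 0.716 between the organs. Thymus tuft libraries held more genes: at an equal 29031373 counts, 17485 ± 774 genes had at least 10 counts (SD, n = 4), against 12507 ± 127 in gall bladder tuft (SD, n = 3; exact permutation test, two-sided p = 0.0571, the smallest 4 against 3 libraries allow). Protein-coding mitochondrial transcripts took 3.51 ± 0.447% of counts in thymus tuft and 9.97 ± 1.00% in gall bladder tuft (same test and p). Of the 13 such transcripts listed, mt-Co2, mt-Co3, mt-Atp6, mt-Atp8 and mt-Nd4l had no count in either organ, so these shares do not cover them. Low levels need care. For 87 genes with at least 100 CPM in thymus tuft and a log2 fold change of at least 6, the median level in gall bladder libraries 1, 3 and 4 was 0.405%, 0% and 0.238% of the thymus tuft mean, and 50 of the 87 were at 0 in library 3 and 0 of the 87 in libraries 1 and 4. In the other direction, 20 genes of gall bladder tuft chosen by the same thresholds stood at a median of 0.933%, 0.892%, 0.832% and 0.395% of the gall bladder tuft mean in thymus libraries 1 to 4. Whether those few counts came from the cells sorted was not tested, and the size of such fold changes rests on them.

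Across the genes tested, 4141 (20.9%) were called higher and 1933 (9.74%) lower in thymus tuft, 30.6% in either direction, with calls made at an edgeR adjusted p below 0.05 and a 2-fold or larger change. The median log2 fold change of all genes tested was 0.38. The calls differed in level: genes called higher had a median of 6.06 CPM in thymus tuft, whereas genes called lower had a median of 92.4 CPM in gall bladder tuft. Among genes with a mean of 1 to 5 CPM in the higher group, 36.5% were called higher and 2.12% lower, while between 100 and 1000 CPM 12.5% were higher and 33.3% lower. Of the 103 genes above 1000 CPM, 12 were higher and 64 lower. Among genes whose higher group averaged 20 CPM or more, 1205 genes were called higher and 1630 lower. In 1093 genes called higher the 3 gall bladder libraries held no count, and in 19 genes called lower the 4 thymus libraries held none. In 5106 genes (25.7%) all thymus tuft libraries lay above all gall bladder tuft libraries, and in 2395 (12.1%) all gall bladder libraries lay above. A change of scaling moved the whole scale a little: RLE shifted the median log2 fold change by 0.12, and leaving out mitochondrial transcripts shifted it by -0.11. Of the 8 mitochondrial transcripts tested 7 were called lower, with a median log2 fold change of -1.95. The number of genes called higher was 2767 without gall bladder library 1, 2694 without library 3 and 2826 without library 4. Gene lists below are counted over their members that passed the filter on low counts, called measured here. Each list count is to be read beside the shares over all genes tested, 20.9% higher and 9.74% lower. A gene low in both organs cannot pass, and one that is low in a single organ passes through the other, so counts and medians of lists with many low members are descriptions. In bulk libraries, a change in the number of cells of a type and a change in RNA per cell cannot be told apart.

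**Figure D1:**
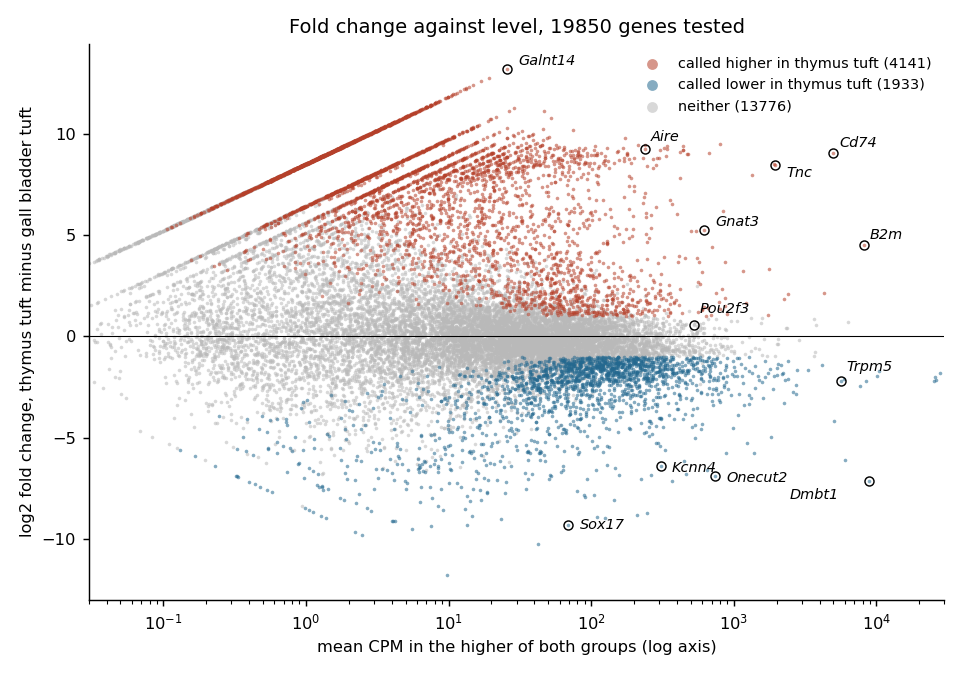
Log2 fold change, thymus tuft minus gall bladder tuft, against the mean CPM of the higher group (log axis), 1 point per gene tested, with called genes coloured. Genes called higher (4141) crowd at low CPM, those called lower (1933) above 20 CPM; straight lines at the upper left are genes with 0 or a few counts in all gall bladder libraries together.

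Genes of antigen presentation differed in level between the organs. All 11 MHC class II genes measured were called higher in thymus tuft, where 20.9% of all genes were, with a list median of 9.03 on the log2 scale, and their summed level was 7664 to 10517 CPM in thymus tuft and 10.6 to 32.9 CPM in gall bladder tuft. Members with few counts in gall bladder tuft, such as Ciita and H2-DMa with 9 and 10 in all, pass the filter largely through thymus tuft. The list was also chosen with earlier results of these data known, so its count is a description. Class II genes are known to be switched on together by the transactivator CIITA, which acts on factors bound to X and Y boxes just upstream of each gene. Stretches of the annotated promoters are shown because the members moved together. They cover the 150 bases before the annotated start, 5′ to 3′ on the gene's strand (RefSeq, GRCm38.p6), with matches to the Y box core TGATTGG and the X box core AACNNATG on either strand in capitals. H2-Aa lies at chr17:34287824-34287973 (minus strand), H2-Eb1 at chr17:34305717-34305866, H2-Eb2 at chr17:34325525-34325674 and H2-Ob at chr17:34238755-34238904 (plus strand for these 3).
H2-Aa: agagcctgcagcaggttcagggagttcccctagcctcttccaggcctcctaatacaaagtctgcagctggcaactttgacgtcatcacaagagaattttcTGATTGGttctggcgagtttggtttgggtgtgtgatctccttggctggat
H2-Eb1: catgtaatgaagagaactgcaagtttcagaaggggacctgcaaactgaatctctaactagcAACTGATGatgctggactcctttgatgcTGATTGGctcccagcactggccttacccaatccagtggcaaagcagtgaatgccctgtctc
H2-Eb2: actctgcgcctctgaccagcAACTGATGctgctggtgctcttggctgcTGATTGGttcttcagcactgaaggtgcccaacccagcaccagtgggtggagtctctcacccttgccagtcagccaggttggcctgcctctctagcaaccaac
H2-Ob: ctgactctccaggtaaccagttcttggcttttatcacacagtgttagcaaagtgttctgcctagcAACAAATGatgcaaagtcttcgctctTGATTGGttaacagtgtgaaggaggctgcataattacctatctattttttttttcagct
In H2-Eb1, H2-Eb2 and H2-Ob an X box core stands upstream of a Y box core, and H2-Aa shows the Y box core alone. A promoter entry matched 8 of the 11 genes. Over the 250 bases before the start, 7 of these 8 (87.5%) held the Y box core, against 7.23% of all 32851 promoter entries. The X box core was found in 5 of 8 (62.5%), against 7.71% of all entries, and both cores in the same 5, against 0.664%. In no entry of the 8 did the cores overlap. The letters were chosen with these sequences in view, and a match is a description of the sequence and not of binding.

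Ciita, the transactivator itself, was at 66.7, 58.6, 49.1 and 27.7 CPM in thymus tuft and at 0.179, 0 and 0.0496 CPM in gall bladder tuft. Cd74, the invariant chain that guides class II molecules to the loading compartment, was at 4157, 4337, 4884 and 6472 CPM in thymus tuft and at 15.2, 0 and 12.9 CPM in gall bladder tuft. H2-Aa and H2-Ab1, the chains of one class II molecule, stood at 1350.0 ± 138 and 1910.2 ± 224 CPM in thymus tuft (SD, n = 4), against 5.35 ± 2.99 and 5.31 ± 1.57 CPM in gall bladder tuft (SD, n = 3). No library of one organ came near those of the other, and Ciita and Cd74 had no count in gall bladder library 3. The log2 fold changes were 9.27 ± 1.59 for Ciita, 9.04 ± 1.58 for Cd74, 8.49 ± 0.95 for H2-Ab1 and 7.98 ± 1.00 for H2-Aa (edgeR adjusted p = 0.000341, 0.000405, 5.06e-06 and 1.76e-05). The loading factors followed the same pattern. H2-DMa, a chain of the peptide exchange factor, was at 42.1 to 54.2 CPM in thymus tuft and 0 to 0.128 CPM in gall bladder tuft, and H2-Oa, a chain of its inhibitor, at 64.7 to 131 CPM in thymus tuft and 0 to 0.231 CPM in gall bladder tuft. H2-DMb1 and H2-DMb2 are near-identical neighbours, so their separate counts are uncertain.

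Class I genes differed less and in part. Of 15 measured, 5 were higher, 0 lower and 10 neither, with a median of 1.02. B2m, the light chain of all class I molecules (ENSMUSG00000060802, GRCm38 chromosome 2, 122147686 to 122153083), was at 7316, 8746, 7817 and 8778 CPM in thymus tuft and at 415, 313 and 373 CPM in gall bladder tuft, a log2 fold change of 4.48 ± 0.24 (edgeR adjusted p = 1.7e-09). Its libraries were tight within each organ and far apart between them. The heavy chain genes H2-K1 and H2-D1 were also higher, at 4259 ± 246 and 2246 ± 168 CPM in thymus tuft and 964 ± 251 and 637 ± 174 CPM in gall bladder tuft, with log2 fold changes of 2.14 ± 0.26 and 1.82 ± 0.28. Class I genes are highly similar in sequence, so reads may be shared between them. Nlrc5, the class I counterpart of CIITA, was at 70.5 to 105 CPM in thymus tuft and 0 to 0.422 CPM in gall bladder tuft (log2 fold change 8.59 ± 1.06). Tap1, a subunit of the peptide transporter, was at 137, 181, 146 and 175 CPM in thymus tuft and 8.02, 32.4 and 4.19 CPM in gall bladder tuft (log2 fold change 3.43 ± 0.59). The immunoproteasome genes Psmb8 and Psmb9 and the chaperone genes Calr, Pdia3 and Tapbp were among the 10 called in neither direction, with log2 differences of 1.02, 1.05, -0.46, 0.22 and 0.81.

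Genes that help or restrain T cells through contact followed the class II genes. Of 12 measured costimulation genes 9 were higher, 1 lower and 2 neither, with a median of 6.75, or 6.66 with the member at 0 counts in gall bladder tuft set to its bound. Cd80 and Cd86, ligands of CD28, were at 60.1 to 82.4 and 18.8 to 26.6 CPM in thymus tuft and at 0.11 to 0.347 and 0 to 0.0992 CPM in gall bladder tuft. Cd40, a receptor for T cell help, was at 28.8, 34.4, 47.1 and 36.3 CPM in thymus tuft and 0.154, 0 and 0.0744 CPM in gall bladder tuft. Cd274, which encodes the inhibitory ligand PD-L1, was at 376, 344, 358 and 536 CPM in thymus tuft and 39.5, 51.3 and 3.87 CPM in gall bladder tuft, so it was present in gall bladder libraries too. Pdcd1lg2, the gene of PD-L2, was at 4.46, 6.79, 5.06 and 6.6 CPM in thymus tuft and had no count in gall bladder tuft, which makes it at least 201-fold higher against a floor of 3 counts over the group. The exception was Vtcn1, an inhibitory family member, at 1.19, 0.628, 5.75 and 9.51 CPM in thymus tuft and 28.1, 67.8 and 12 CPM in gall bladder tuft (log2 fold change -3.07 ± 0.92, edgeR adjusted p = 0.0177), a call lost without gall bladder library 3 (log2 fold change -2.30, adjusted p = 0.0861). Of 18 genes of NF-kappaB signalling, the pathway that medullary epithelium needs, 5 were higher and 0 lower, with a median of 1.15, and 5 to 8 were higher over the other scalings, filters and fits. Tnfrsf11a, the gene of the receptor RANK, was at 214, 119, 195 and 78.2 CPM in thymus tuft and at 5.64, 4.64 and 0.893 CPM in gall bladder tuft.

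Thymic epithelial genes were present at high levels in the thymus tuft libraries. Of 24 measured, 20 were higher, 1 lower and 3 neither, with a median of 7.93, or 7.83 with the member at 0 counts at its bound. Foxn1, the transcription factor that thymic epithelium depends on, was at 204, 209, 148 and 157 CPM in thymus tuft and 0.743, 0 and 0.298 CPM in gall bladder tuft (log2 fold change 8.97 ± 1.11). Fezf2, which drives a set of tissue-restricted genes apart from AIRE, was at 326, 309, 319.5 and 256 CPM in thymus tuft and 0.82, 0 and 0.67 CPM in gall bladder tuft (log2 fold change 9.21 ± 1.02). The pharyngeal pouch factors Pax1, Pax9 and Six4 were higher as well, with log2 fold changes of 8.94, 8.64 and 8.02. Their partner Eya1 differed less, at 307, 345, 287 and 268 CPM in thymus tuft and 19.6, 81.1 and 85 CPM in gall bladder tuft (log2 fold change 2.29 ± 0.53). Tnfrsf11b, the decoy receptor of the RANK ligand, was at 23.5 to 76.7 CPM in thymus tuft and 0 to 0.154 CPM in gall bladder tuft. Prss16, a protease of cortical epithelium, was at 32.3, 3.24, 38.9 and 28.3 CPM in thymus tuft, with library 2 far under the others, and had 3 counts in all of gall bladder tuft, a ratio of 950.5 (325 to 4610.4) with its 95% counting interval.

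Keratins, the intermediate filament proteins of epithelia, were called in both directions. Of 19 measured, 10 were higher, 3 lower and 6 neither, with a median of 5.92. Krt5 and Krt14, the keratin pair of basal stratified cells, were at 675 ± 63.5 and 83 ± 16.8 CPM in thymus tuft (SD, n = 4) and at 1.28 ± 1.38 and 0.159 ± 0.142 CPM in gall bladder tuft (SD, n = 3). Krt17 and Krt10 were higher too, with log2 fold changes of 9.20 ± 1.93 and 5.92 ± 1.32. The 3 called lower were Krt18, Krt19 and Krt23, keratins known from simple epithelia: Krt18 at 1146, 1540.3, 1575 and 1279 CPM in thymus tuft and 7228, 5152 and 5334 CPM in gall bladder tuft, Krt19 at 147 to 229 CPM in thymus tuft and 429 to 645 CPM in gall bladder tuft, and Krt23 at 65.8 to 83.9 CPM in thymus tuft and 188 to 239.5 CPM in gall bladder tuft. Trp63, the factor that maintains basal epithelial cells, was at 122, 106, 141 and 133 CPM in thymus tuft and 0.564, 0 and 0.322 CPM in gall bladder tuft (log2 fold change 8.68 ± 1.56, edgeR adjusted p = 0.000523). Of 20 other genes of stratified epithelium 12 were higher, 1 lower and 7 neither. Krtdap, a protein of differentiating keratinocytes, was at 257 to 364 CPM in thymus tuft and 0 to 0.794 CPM in gall bladder tuft. Itgb4, the integrin chain of hemidesmosomes, went the other way, at 89.3, 54.8, 129 and 139 CPM in thymus tuft and 246, 356 and 348 CPM in gall bladder tuft (log2 fold change -1.62 ± 0.30).

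**Figure D2:**
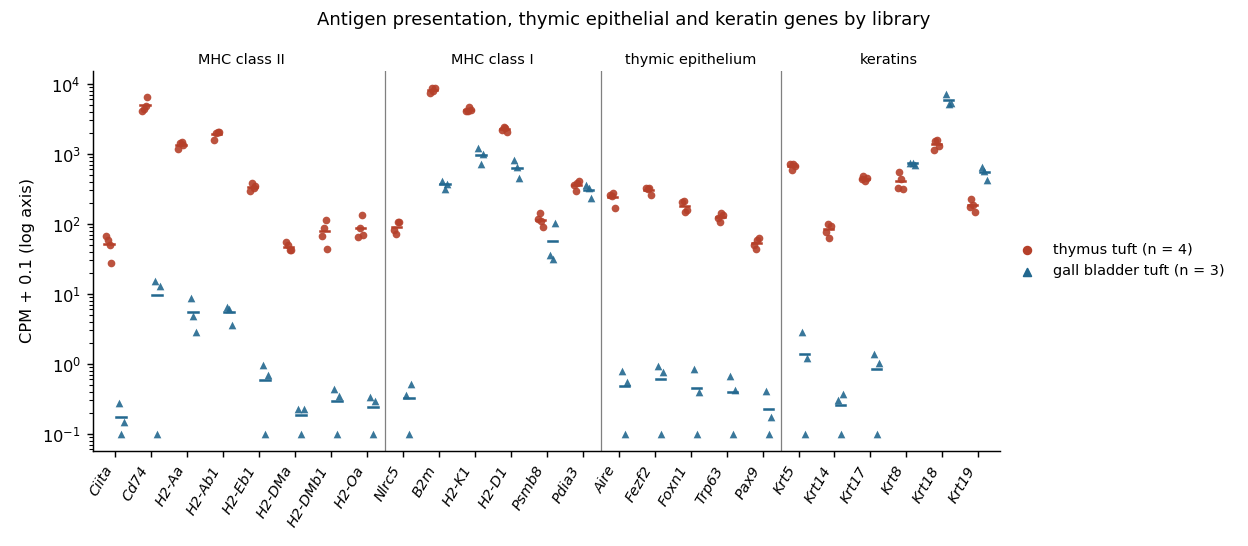
CPM + 0.1 on a log axis for antigen presentation, thymic epithelial and keratin genes, 1 point per library and a line at the mean; circles are thymus tuft (n = 4), triangles gall bladder tuft (n = 3). All 8 class II genes shown lie higher in thymus tuft by more than the spread of either group, while Krt18 and Krt19 lie lower.

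Genes normally confined to single organs were detected in thymus tuft at low levels. Of 20 such genes measured 13 were higher, 2 lower and 5 neither, and the number higher was 8 without gall bladder library 4 and 5 to 13 over the other scalings, filters and fits, the lowest with a minimum of 5 CPM. The list median was 7.78, or 6.07 with the members at 0 counts in one group at their bound. Csn2, the milk protein beta-casein (ENSMUSG00000063157, GRCm38 chromosome 5, 87692624 to 87699630), was the exception in level, at 428, 400.1, 529 and 398 CPM in thymus tuft and 1.33, 0 and 0.868 CPM in gall bladder tuft (log2 fold change 9.19 ± 1.03, edgeR adjusted p = 5.48e-06). Its 4 thymus tuft libraries were close to each other, unlike most of the list. Ins2, an insulin gene, was at 1.85, 7.01, 2.82 and 0.712 CPM in thymus tuft with no count in gall bladder tuft, at least 109-fold higher. Csn1s1, another casein, was at 5.26, 10.7, 1.79 and 6.78 CPM in thymus tuft, at least 207-fold higher. Ambp and Reg1, secreted proteins of liver and pancreas, were lower, at 0.265 to 8.23 and 12.5 to 23.5 CPM in thymus tuft and 285 to 660.3 and 52.4 to 277 CPM in gall bladder tuft. Kallikrein genes, mostly salivary gland proteases, were chosen after their values were seen, so their count is a description and supports nothing further. Of 24 tested 22 were higher, where 20.9% of all genes were. Their summed levels were 253 to 531 CPM in thymus tuft and 1.91 to 40.1 CPM in gall bladder tuft. Genes this low in 1 organ pass the filter largely through the other. Their near-identical copies make separate counts uncertain.

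Bitter taste receptors, the G protein-coupled receptors of the Tas2r family, were detected in thymus tuft and at most in traces in gall bladder tuft. Of 35 listed genes 29 passed the filter on low counts, 28 of them were called higher and 1, Tas2r126, was neither (log2 difference 4.96 ± 2.28, edgeR adjusted p = 0.103). A gene this low passes the filter largely through the group where it is high, so the count describes the family and supports nothing further. Summed over the list, the level was 208, 236, 145 and 194 CPM in thymus tuft libraries 1 to 4 and 1.77, 0 and 2.13 CPM in gall bladder tuft libraries 1, 3 and 4. Tas2r108, the receptor with the most counts (chromosome 6, 40493529 to 40494541), was at 46.3, 52.3, 42.7 and 39.3 CPM in thymus tuft and 0.717, 0 and 0.0744 CPM in gall bladder tuft, a log2 fold change of 7.36 ± 1.18 (edgeR adjusted p = 0.000181). Tas2r137 was at 27.2, 35.2, 12.2 and 21.1 CPM in thymus tuft and 0.102, 0 and 0.0248 CPM in gall bladder tuft, and Tas2r138 at 31.4, 40.9, 25.6 and 32.2 CPM in thymus tuft and 0.231, 0 and 1.59 CPM in gall bladder tuft. The other receptors were low: 21 of the 29 had a mean under 5 CPM in thymus tuft, and 13 had no count in any gall bladder library. All 20 genes tested in the distal cluster of chromosome 6 (131659118 to 133037101) were called higher. The receptors resemble each other, and reads of close copies may be shared. Without gall bladder library 4 the number called higher was 19, and it was 10 to 29 over the other scalings, filters and fits, the lowest with a minimum of 5 CPM.

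The signalling steps below the receptors did not move as a block. Of 25 taste cascade genes measured 10 were higher, 5 lower and 10 neither; the number higher was 6 without gall bladder library 3 or 4, and the number lower was 3 without gall bladder library 3 or 4 or thymus library 3 and 2 without thymus library 4. With a replicate block the number lower was 3. Gnat3, the alpha subunit of the taste G protein gustducin (ENSMUSG00000028777, GRCm38 chromosome 5, 17962549 to 18019834), was at 498, 699, 478 and 811 CPM in thymus tuft and 16.6, 5.33 and 27 CPM in gall bladder tuft, a log2 fold change of 5.25 ± 0.55 (edgeR adjusted p = 2.36e-06). Gnb3, a beta subunit, was at 216, 217, 187 and 184 CPM in thymus tuft and 3.51, 0.365 and 0.347 CPM in gall bladder tuft (log2 fold change 7.14 ± 1.03). Neither gene overlapped between the organs. Plcb2, the phospholipase that the taste G protein activates, was at 1171, 1347, 1344 and 992 CPM in thymus tuft and 531, 407 and 230.5 CPM in gall bladder tuft (log2 fold change 1.64 ± 0.39), whereas Plcg2, a phospholipase activated by tyrosine kinases, was at 159, 170.1, 151 and 124 CPM in thymus tuft and 1051, 941 and 729 CPM in gall bladder tuft (log2 fold change -2.59 ± 0.27). The pair of phospholipase genes thus ran in opposite directions, each without overlap. Trpm5 (ENSMUSG00000009246, GRCm38 chromosome 7, 143069153 to 143094642) was lower in thymus tuft, at 1072, 1284, 1229 and 1284 CPM against 5934, 5768 and 5171 CPM in gall bladder tuft, a log2 fold change of -2.21 ± 0.20 (edgeR adjusted p = 6.52e-07). Rgs21, a regulator of G protein signalling in taste cells, was at 31.7 to 61.7 CPM in thymus tuft and 0.0365 to 0.231 CPM in gall bladder tuft.

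Genes known from tuft cells, called shared tuft genes here, were more often lower than higher in thymus tuft. Of 40 measured 3 were higher, 21 lower and 16 neither, with a median of -1.24, and the summed level was 16345 to 19874 CPM in thymus tuft and 41263 to 45582 CPM in gall bladder tuft. The list was drawn up with earlier results of these libraries known, so its direction is no independent evidence. Dclk1, a kinase gene used as a tuft marker, was at 991, 983, 933 and 1292 CPM in thymus tuft and 3169, 3239.8 and 3549.9 CPM in gall bladder tuft (log2 fold change -1.66 ± 0.19). Avil, an actin-binding protein of the tuft, was at 895 to 1176 CPM in thymus tuft and 2274 to 2637 CPM in gall bladder tuft. Sh2d6, an adaptor gene, was at 1140.5 to 1634 CPM in thymus tuft and 7436 to 8142 CPM in gall bladder tuft (log2 fold change -2.45 ± 0.23). Siglecf, the gene of a sialic acid receptor, was at 19.9, 20.6, 22.7 and 13.3 CPM in thymus tuft and 218, 224 and 492 CPM in gall bladder tuft (log2 fold change -4.03 ± 0.41, edgeR adjusted p = 1.74e-06). The groups did not overlap in any of these 4. Hmx2, a homeobox factor gene, and Nrgn, a calmodulin-binding protein, had log2 fold changes of -3.60 ± 0.67 and -3.41 ± 0.45. Over the other scalings, filters and fits tried, 19 to 22 members were lower, and 18 to 22 without single libraries.

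**Figure D3:**
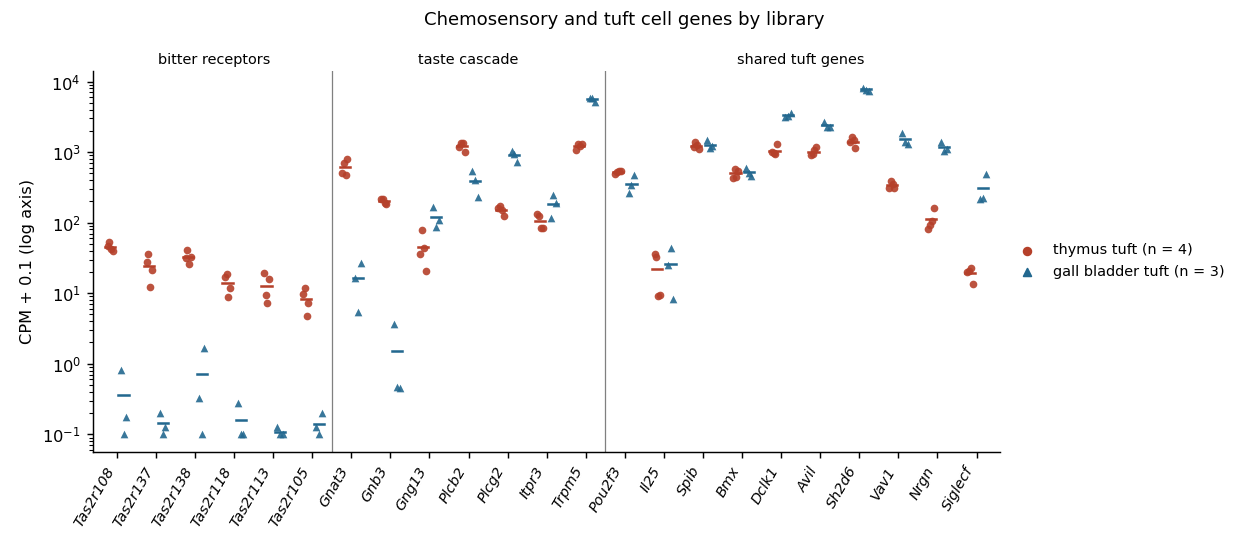
CPM + 0.1 on a log axis for bitter receptors, taste cascade genes and shared tuft genes, 1 point per library and a line at the mean; circles are thymus tuft (n = 4), triangles gall bladder tuft (n = 3). Receptors, Gnat3 and Gnb3 lie higher in thymus tuft, Trpm5, Plcg2 and most shared tuft genes lie lower, and Spib and Il25 overlap.

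Tuft cells are known to express kinases and adaptors usually met in blood cells, and these were called in both directions. Of 36 measured 7 were higher, 12 lower and 17 neither, with a median of -0.77, and the number higher was 4 without gall bladder library 1 and 4 to 9 over the other scalings, filters and fits. The 7 higher were near the share over all genes (20.9%), and 9.74% of all genes were lower. Vav1, an exchange factor for small GTPases, was at 312, 392, 351 and 314 CPM in thymus tuft and 1839, 1377 and 1311 CPM in gall bladder tuft (log2 fold change -2.14 ± 0.21). Fyb, an adaptor of T cells, was at 507 to 612 CPM in thymus tuft and 1868 to 3032 CPM in gall bladder tuft. Exchange factors of Ras split by paralog: Rasgrp1 was at 18.9 to 49.8 CPM in thymus tuft and 0.0248 to 0.219 CPM in gall bladder tuft, while Rasgrp3 was at 0.163 to 1.55 CPM in thymus tuft and 40.3 to 124 CPM in gall bladder tuft. Their log2 fold changes were 7.60 ± 1.79 and -7.04 ± 1.37 (edgeR adjusted p = 0.00421 and 0.00101). Lcp1, an actin-bundling protein of leukocytes, was higher, at 649 to 829 CPM in thymus tuft and 167 to 181 CPM in gall bladder tuft.

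Gall bladder tuft libraries carried transcription factors of foregut and biliary epithelium. Of 23 measured 12 were lower in thymus tuft, where 9.74% of all genes were, 3 were higher and 8 neither, with a median of -1.20. Onecut2, a homeobox factor of liver and bile duct, was at 9.53, 6.2, 5.27 and 4.11 CPM in thymus tuft and 612, 651 and 960.3 CPM in gall bladder tuft (log2 fold change -6.88 ± 0.50, edgeR adjusted p = 8.6e-08). Hnf4a, a hepatocyte nuclear factor, was lower too, at 15.8, 14, 17 and 5.23 CPM in thymus tuft and 528, 201 and 127 CPM in gall bladder tuft. Nr5a2, a nuclear receptor that acts on bile acid synthesis in liver, was at 1.69, 1.94, 1.62 and 0.183 CPM in thymus tuft and 93.4, 148 and 227 CPM in gall bladder tuft (log2 fold change -6.84 ± 0.76). None of these overlapped between the organs. Within the GATA family the paralogs ran in opposite directions. Gata6 was at 3.64, 1.55, 4.02 and 0.448 CPM in thymus tuft and 45.8, 74.5 and 79.8 CPM in gall bladder tuft, and Gata4 was at 8.07, 4.79, 20.5 and 2.79 CPM in thymus tuft and 0.538, 0.183 and 1.59 CPM in gall bladder tuft (log2 fold changes -4.78 ± 0.79 and 3.54 ± 0.83). The call of Gata4 was lost with only the 7 libraries in the fit (edgeR adjusted p = 0.0512). Foxa1, a forkhead factor of endodermal organs, was higher in thymus tuft, at 78.1 to 97.9 CPM against 0.11 to 3 CPM in gall bladder tuft.

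Transporters of bile, ions and water were called in both directions. Of 31 measured 9 were higher, 10 lower and 12 neither, with a median of -0.19, and the number higher was 5 without gall bladder library 3 or thymus library 2 and 3 to 9 over the other scalings, filters and fits, the lowest with limma. Slc4a4, a sodium bicarbonate cotransporter, was at 19.9, 38.7, 25.9 and 18 CPM in thymus tuft and 489, 437 and 398 CPM in gall bladder tuft (log2 fold change -4.11 ± 0.70). Slc9a3, the sodium-proton exchanger of absorptive epithelia, was at 4.5, 0.922, 1.14 and 0.346 CPM in thymus tuft and 104, 95.6 and 38.7 CPM in gall bladder tuft (log2 fold change -5.52 ± 0.81). Slc10a2, the apical bile acid transporter, was low in both organs but called lower, at 0 to 0.137 CPM in thymus tuft and 2.48 to 10.2 CPM in gall bladder tuft. The water channels went separate ways. Aqp1 was at 12.9, 17, 10.4 and 48 CPM in thymus tuft and 753, 285 and 98.5 CPM in gall bladder tuft, while Aqp3 was at 18.2, 41.1, 18.2 and 16.3 CPM in thymus tuft and 0.128, 0.0365 and 0.174 CPM in gall bladder tuft (log2 fold changes -4.10 ± 0.83 and 7.63 ± 1.38). Cftr, the chloride channel of bile ducts, was higher in thymus tuft, at 23.3, 11.4, 28.5 and 31.6 CPM against 0.384, 0.584 and 0.273 CPM in gall bladder tuft (log2 fold change 5.85 ± 1.47, edgeR adjusted p = 0.00644). Kcnn4, a calcium-activated potassium channel, was lower, at 5.17, 4.18, 2.88 and 2.22 CPM in thymus tuft and 252, 197 and 473 CPM in gall bladder tuft, and Kcnj15, an inward rectifier, was higher, at 311, 296, 315 and 442 CPM in thymus tuft and 0.999, 0 and 0.67 CPM in gall bladder tuft. Over the 22 potassium channel genes measured 8 were higher and 5 lower, with 5 higher without gall bladder library 1, 4 without library 4 and 5 to 8 over the other scalings, filters and fits.

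Metabolic genes were more often lower than higher. Of 32 genes of drug and toxin metabolism 15 were lower in thymus tuft, 5 higher and 12 neither, with a median of -1.81, and 2 were higher with limma. Ugt2b34, a glucuronosyltransferase, was at 23.7, 13.1, 23.2 and 15.5 CPM in thymus tuft and 298, 279 and 337 CPM in gall bladder tuft (log2 fold change -4.02 ± 0.65). Aldh1a1, which makes retinoic acid, was at 2.77 to 7.12 CPM in thymus tuft and 62.3 to 107 CPM in gall bladder tuft. Of 24 lipid and sterol genes 11 were lower, 2 higher and 11 neither, with a median of -0.95. Hmgcs1, an early enzyme of cholesterol synthesis, was at 67.8, 57.6, 63.2 and 80.4 CPM in thymus tuft and 1192, 278 and 662 CPM in gall bladder tuft (log2 fold change -3.40 ± 0.38, edgeR adjusted p = 5.24e-06). Fdft1 and Sqle, further enzymes of the same route, had log2 fold changes of -2.73 ± 0.36 and -1.77 ± 0.25. The 2 that were higher were Scd1, a fatty acid desaturase, at 319 to 328 CPM in thymus tuft and 10.5 to 27.3 CPM in gall bladder tuft, and Apoe, a lipid carrier, at 53.3 to 95.2 CPM in thymus tuft and 0 to 2.83 CPM in gall bladder tuft.

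Genes of eicosanoids, lipid mediators that tuft cells are known to make, were called in both directions. Of 31 eicosanoid genes measured 11 were higher, 5 lower and 15 neither, with a median of 0.34. Alox5, Alox5ap and Ltc4s, genes of leukotriene synthesis, were lower in thymus tuft, with log2 fold changes of -1.24 ± 0.25, -1.97 ± 0.28 and -2.89 ± 0.38. Ltc4s, the synthase of leukotriene C4, was at 15.6, 30.0, 33.4 and 30.9 CPM in thymus tuft and 313, 146 and 152 CPM in gall bladder tuft. In prostaglandin E2 synthesis, Ptgs2 and Ptges were higher, while Ptgs1, Ptges2 and Ptges3 were called in neither direction, with log2 differences of -0.66, -1.68 and -0.98, that of Ptges2 being 0.48 without gall bladder library 1. Ptgs2, the inducible cyclooxygenase (chromosome 1, 150100031 to 150108227), was at 369, 414, 414 and 452 CPM in thymus tuft and 20.8, 20.8 and 37.9 CPM in gall bladder tuft, and Ptges at 48.4, 59, 74.3 and 93.9 CPM in thymus tuft and 0.692, 0.073 and 0.198 CPM in gall bladder tuft. Their log2 fold changes were 3.96 ± 0.71 and 7.71 ± 1.15 (edgeR adjusted p = 0.000531 and 9.38e-05). Cysltr2, a receptor of the leukotrienes, was at 66, 36.2, 49.9 and 58.1 CPM in thymus tuft and had 3 counts in all of gall bladder tuft, a ratio of 1872 (640.5 to 9079.6). Alox15 and Alox12e, lipoxygenases of another branch, were at 86 to 137 and 173 to 294 CPM in thymus tuft and 0 to 0.717 and 0.471 to 4.09 CPM in gall bladder tuft.

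Chat and Ache, genes of enzymes that make and break down acetylcholine, were called in opposite directions. Chat, the enzyme that makes acetylcholine, was at 128, 127, 97.8 and 197 CPM in thymus tuft and 345, 490.4 and 492 CPM in gall bladder tuft (log2 fold change -1.69 ± 0.40). Ache, an enzyme that breaks it down (chromosome 5, 137287519 to 137294466), was at 277, 271, 227 and 146 CPM in thymus tuft and 0.768, 0.292 and 0.496 CPM in gall bladder tuft (log2 fold change 8.77 ± 0.99, edgeR adjusted p = 5.41e-06). The groups overlapped for neither gene. Bche, a further enzyme of acetylcholine breakdown, was called in neither direction (log2 difference -1.19 ± 0.62). It was at 28.9, 52.4, 24.7 and 25.3 CPM in thymus tuft and 37.4, 88.8 and 99 CPM in gall bladder tuft. Of the 11 acetylcholine genes measured 2 were higher, 3 lower and 6 neither. Of 25 metabolite receptors 6 were higher and 4 lower, near the shares over all genes (20.9% and 9.74%), with 4 to 9 lower over the other scalings, filters and fits. Ffar3, which senses short-chain fatty acids, was at 2.1, 7.2, 7.15 and 13.9 CPM in thymus tuft and 496, 202 and 185 CPM in gall bladder tuft (log2 fold change -5.28 ± 0.61). Sucnr1, the succinate receptor (chromosome 3, 60081869 to 60087566), was low in both, at 6.04, 1.24, 2.67 and 4.25 CPM in thymus tuft and 0.231, 0.986 and 0.198 CPM in gall bladder tuft (log2 fold change 2.93 ± 0.78, edgeR adjusted p = 0.00899, or 0.103 with only the 7 libraries in the fit).

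**Figure D4:**
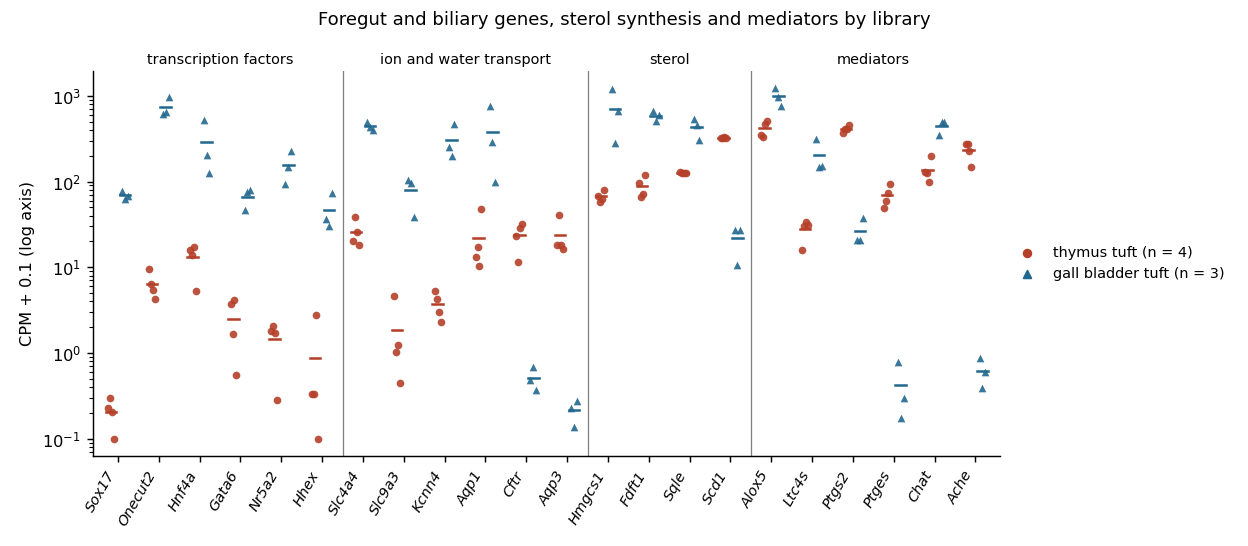
CPM + 0.1 on a log axis for foregut and biliary transcription factors, ion and water transport, sterol and mediator genes, 1 point per library and a line at the mean; circles are thymus tuft (n = 4), triangles gall bladder tuft (n = 3). All 6 transcription factors shown lie lower in thymus tuft, while Cftr, Aqp3, Scd1, Ptgs2, Ptges and Ache lie higher.

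Chemokines and interferon-stimulated genes were more often higher than lower in thymus tuft. Of 22 chemokine genes measured 14 were higher, 1 lower and 7 neither, with a median of 6.73. Ccl25, which attracts thymocyte precursors, was at 211, 235, 377 and 228 CPM in thymus tuft and 2.72, 0.073 and 9.72 CPM in gall bladder tuft, and Ccl22, a ligand of CCR4 on T cells, at 170.3, 207, 581 and 190.1 CPM in thymus tuft and 1.1, 0.0365 and 0.769 CPM in gall bladder tuft. Cxcl9 and Cxcl10, chemokines induced by interferon, were at 135 to 280.0 and 305 to 510.2 CPM in thymus tuft and 0 to 0.871 and 1.64 to 14.4 CPM in gall bladder tuft. Of 31 interferon-stimulated genes 15 were higher, 2 lower and 14 neither, with a median of 2.20. Ifitm3, a membrane protein that blocks virus entry, was at 687, 999, 833 and 862 CPM in thymus tuft and 10.6, 21.2 and 3.1 CPM in gall bladder tuft (log2 fold change 6.19 ± 0.52, edgeR adjusted p = 1.94e-07), and Zbp1, a nucleic acid sensor, at 88.3 to 139 CPM in thymus tuft and 0.84 to 2.8 CPM in gall bladder tuft. Stat2, which carries interferon signals to the nucleus, was lower, with a log2 fold change of -1.44 ± 0.28, so the list did not move as 1 unit. Of 17 genes of type 2 cytokine signalling, 4 were higher, 0 lower and 13 neither, and their median was -0.13. The 4 higher were near the share over all genes (20.9%).

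Genes of the Hox clusters, which mark position along the body axis, were low in level, and those called were higher in thymus tuft. Of 31 measured 21 were higher and 0 lower, with a median of 5.17, or 4.90 with the members at 0 counts at their bound, and the number higher was 14 without gall bladder library 4 and 12 to 25 over the other scalings, filters and fits, the lowest with limma. Hoxa3, needed for the thymus to form, was at 3.45, 4.59, 1.69 and 4.46 CPM in thymus tuft and 0.333, 0.219 and 0.0744 CPM in gall bladder tuft, a call lost with limma (adjusted p = 0.0737). Hoxc10, a posterior member, was at 22.3, 10.2, 16 and 19.6 CPM in thymus tuft and had no count in gall bladder tuft, at least 606-fold higher.

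Notch and Wnt genes were called in both directions. Of 27 measured 10 were higher, 7 lower and 10 neither, with a median of 0.37; the number higher was 6 without gall bladder library 3, and the number lower was 3 without library 4. The Notch ligands differed, with Jag1 at 64.1, 50.9, 61.9 and 79.7 CPM in thymus tuft and 3.79, 17 and 1.44 CPM in gall bladder tuft, and Dll1 at 3.2, 2.87, 3.2 and 5.48 CPM in thymus tuft and 90.0, 17.2 and 22 CPM in gall bladder tuft (log2 fold changes 3.11 ± 0.79 and -3.54 ± 0.72). Among the genes that Notch signalling is known to switch on, Hey1 was higher and Hes1 lower, with log2 fold changes of 5.08 ± 1.36 and -1.71 ± 0.42. Axin2, a target gene of Wnt signalling, was at 25.4, 18, 28.4 and 65.2 CPM in thymus tuft and 0.256, 0.073 and 0.174 CPM in gall bladder tuft (log2 fold change 7.62 ± 1.67). Lgr5, a stem cell receptor of the gut, was lower, at 1.96, 2.83, 2.47 and 3.52 CPM in thymus tuft and 47.3, 49.2 and 96.4 CPM in gall bladder tuft (log2 fold change -4.58 ± 0.38).

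Barrier genes were more often lower than higher in thymus tuft. Of 24 genes of claudins and junctions 12 were lower, 4 higher and 8 neither, with a median of -0.70. Cldn2, a claudin that forms cation pores, was at 19.3, 18.7, 13.9 and 13.3 CPM in thymus tuft and 729, 465 and 408 CPM in gall bladder tuft, and Cldn1, a sealing claudin, at 80.9, 104, 68.7 and 120.0 CPM in thymus tuft and 0.333, 0 and 0.223 CPM in gall bladder tuft. Cdhr2 and Cdhr5, cadherins that link microvilli, had log2 fold changes of -3.34 ± 0.26 and -1.96 ± 0.28. Of 11 mucin genes 4 were higher, or 2 with limma, 3 lower and 4 neither. The membrane mucin genes Muc1 and Muc4 were at 133 to 224 and 46.8 to 81.3 CPM in thymus tuft and 1415 to 1770.0 and 299 to 486 CPM in gall bladder tuft. Host defence genes were mixed: of 28 complement and antimicrobial genes 8 were higher, 6 lower and 14 neither. Nos2, the inducible nitric oxide synthase, was at 124, 110.2, 116 and 166 CPM in thymus tuft and 0.41, 0 and 0.174 CPM in gall bladder tuft, and Duox2, an oxidase that makes hydrogen peroxide, at 5.88, 9.68, 6.51 and 4.4 CPM in thymus tuft and 405, 115 and 471 CPM in gall bladder tuft (log2 fold changes 9.31 ± 1.48 and -5.64 ± 1.13). Duoxa2, which helps DUOX2 mature, had a log2 fold change of -6.13 ± 1.36, so both parts of that enzyme were lower. Pigr, the receptor that carries antibodies across epithelia, was at 152, 88.8, 178 and 115 CPM in thymus tuft and 613, 446 and 699.5 CPM in gall bladder tuft (log2 fold change -2.14 ± 0.23, edgeR adjusted p = 3.79e-06). The antimicrobial genes Reg3g and Lyz1 were at 166 to 207 and 129 to 255 CPM in thymus tuft and at 0.11 to 17.9 and 0.365 to 1.46 CPM in gall bladder tuft. C3, the central complement component, was at 641 to 1088 CPM in thymus tuft and 146 to 328 CPM in gall bladder tuft (log2 fold change 1.89 ± 0.47).

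**Figure D5:**
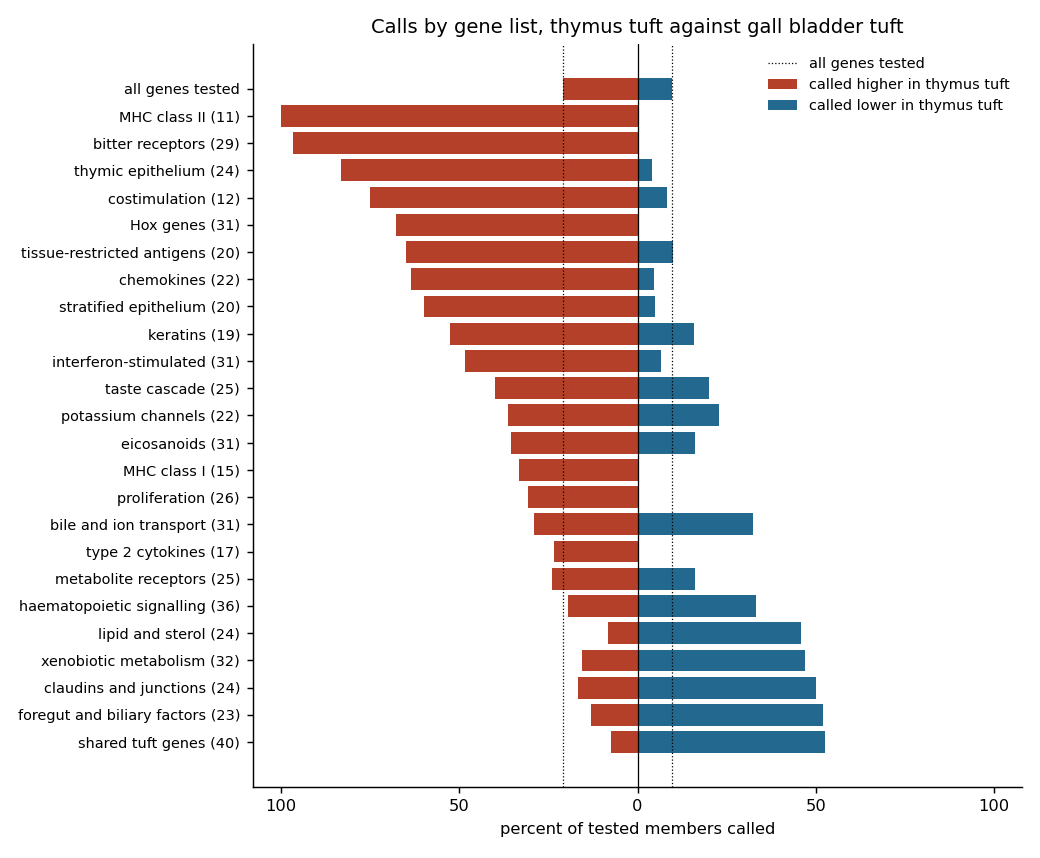
Percent of the measured members of each gene list drawn called higher in thymus tuft (bars to the left) and called lower (bars to the right), with the number measured in parentheses; dotted lines mark all genes tested (20.9% and 9.74%). MHC class II (11 of 11) and bitter receptors (28 of 29) stand first among the lists drawn on the higher side, and shared tuft genes (21 of 40) and foregut and biliary factors (12 of 23) among those drawn on the lower side; the mitochondrial list and the marker lists of other cell types are not drawn.

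Ranked by size, among called genes whose libraries did not overlap and whose higher group averaged 20 CPM or more, the largest increases in thymus tuft were those of Galnt14, Tbx15, Insm1, Lsp1, Serpina3j, Cysltr2, Thrsp, Galnt17, Prrg3, Ces2f, Tbx21, Col12a1, Spock1, Kynu and Tbkbp1. Galnt14, which starts mucin-type glycosylation, was at 30.0, 21.5, 17.5 and 33.4 CPM in thymus tuft with no count in gall bladder tuft, at least 893-fold higher. Insm1, a transcription factor of endocrine cells, was at 15.9, 43.2, 21.8 and 24.7 CPM in thymus tuft with 1 count in gall bladder tuft, a ratio of 2759.7 (495 to 109022). Lsp1, a leukocyte actin-binding protein, was at 45.4, 46.7, 43.8 and 50.5 CPM in thymus tuft with 2 counts in gall bladder tuft, a ratio of 2474 (685 to 20433). Counts summed over the gall bladder libraries were 0 to 7 for all 15, so their ranks rest on single counts. By level, the increases were led by B2m, Cd74, H2-K1, Ly6e, Tnc, H2-Ab1, Fcgbp, H2-Aa, Cap1 and Sprr1a. Tnc, the extracellular matrix protein tenascin C (ENSMUSG00000028364, GRCm38 chromosome 4, 63959785 to 64047015), was at 1851, 1827, 2095 and 1999.5 CPM in thymus tuft and 7.43, 4.82 and 4.37 CPM in gall bladder tuft, a log2 fold change of 8.45 ± 0.50 (edgeR adjusted p = 5.13e-09). Its level was above 4 CPM in every gall bladder library, library 3 included. Cap1, a regulator of actin turnover, was at 1093 to 1210.2 CPM in thymus tuft and 107 to 149 CPM in gall bladder tuft (log2 fold change 3.20 ± 0.30).

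Apart from Sox17, which was given as a marker of the pair, the largest decreases by size included those of Lrg1, Clec14a, Rasgrf1, Pzp, Ildr2, Lrrtm3, Scarna2, Fam198a, Glis1, Dmbt1, Pik3c2g, Rasgrp3 and Padi1. Dmbt1, a secreted scavenger protein of mucosal surfaces (ENSMUSG00000047517, GRCm38 chromosome 7, 131032053 to 131121630), was at 89, 83.8, 64 and 16.6 CPM in thymus tuft and 8852, 6895 and 10769.8 CPM in gall bladder tuft, a log2 fold change of -7.12 ± 0.58 (edgeR adjusted p = 1.51e-07). With mitochondrial transcripts left out of the ranks, it headed the genes called lower when these were ordered by level. Clec14a, a lectin-like protein known from endothelium, was at 0.178, 0.451, 0.228 and 0.0407 CPM in thymus tuft and 75, 116 and 138 CPM in gall bladder tuft (log2 fold change -8.91 ± 0.83). Sox17 and Clec14a are also genes of endothelium, whose markers were higher in 2, lower in 3 and neither in 1 of 6, at a summed 56.5 to 145 CPM in thymus tuft and 121 to 508 CPM in gall bladder tuft. The 3 endothelial markers called lower were Tie1, Tek and Egfl7, at 0.177 to 2.41, 42.6 to 107 and 0 to 0.0785 CPM in thymus tuft and at 20.9 to 71.3, 94.3 to 428 and 1.43 to 7.78 CPM in gall bladder tuft, and the adjusted p of Tek in edgeR was 0.071 without gall bladder library 3. The markers called higher were Pecam1 and Vwf, at 0.334 to 15 and 9.72 to 21.1 CPM in thymus tuft and at 0 to 0.0365 and 0.102 to 0.329 CPM in gall bladder tuft, and the adjusted p of Vwf in edgeR was 0.072 without gall bladder library 1 and 0.067 without library 4. Cdh5 was at 0 to 3.91 CPM in thymus tuft and 0 to 0.0256 CPM in gall bladder tuft and was not tested. The part of endothelial cells in these results was not tested. Glis1, a zinc finger factor, was at 0.0533 to 0.364 CPM in thymus tuft and varied within gall bladder tuft, at 2.84, 57.3 and 44.2 CPM. By level, and again without mitochondrial transcripts and predicted genes, Dmbt1 was followed by Sh2d6, Rn7sk, Krt18, Trpm5, Cyb5r3, Myo15b, Clu, Fyb and Itpr2. Clu, the secreted chaperone clusterin, was at 347 to 452 CPM in thymus tuft and 2466 to 2859 CPM in gall bladder tuft (log2 fold change -2.74 ± 0.75, edgeR adjusted p = 0.011). Itpr2, a calcium release channel, was at 471, 545, 541 and 511 CPM in thymus tuft and 2502, 1864 and 2497 CPM in gall bladder tuft (log2 fold change -2.15 ± 0.21). Rn7sk and Scarna2 are non-coding RNAs of the nucleus that poly(A) capture does not target.

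Markers of other cells that either sort could hold were measured beside these groups, and their part in the results was not tested. Markers of other medullary epithelium were higher in 8 of 9, at a summed 1669.6 to 2025 CPM in thymus tuft and 146 to 339 CPM in gall bladder tuft, and those of cortical epithelium in 5 of 6, at 518 to 822 CPM in thymus tuft and 41 to 121 CPM in gall bladder tuft. Aire is among the 8 medullary markers called higher and adds 169 to 272 CPM to the sum of each thymus tuft library. It was given as a marker of the pair, so its part in that count is no result. All 6 cortical genes and 9 of the 10 medullary genes listed also stand in the thymic, keratin, costimulation or stratified lists above. Markers of gall bladder epithelium other than tuft were lower in 4, higher in 1 and neither in 4 of 9, at 339 to 664 CPM in thymus tuft and 762 to 1809 CPM in gall bladder tuft. Fibroblast and smooth muscle markers were higher in 9 of 12, at 121 to 268 CPM in thymus tuft and 1.33 to 25.1 CPM in gall bladder tuft. Myeloid markers were higher in 5 of 13, or 3 without gall bladder library 1 or thymus library 2 and 3 to 7 over the other scalings, filters and fits, at 254 to 313 CPM in thymus tuft and 47.3 to 73.6 CPM in gall bladder tuft. Lyz2, a macrophage lysozyme, was at 184, 176, 193 and 225 CPM in thymus tuft and 18.3, 0.0365 and 0.273 CPM in gall bladder tuft. Thymocyte markers were higher in 2 and neither in 9 of 11, or higher in 0 without gall bladder library 1 and in 1 to 7 over the other scalings, filters and fits, at 14.7 to 52.5 CPM in thymus tuft and 20.3 to 41.3 CPM in gall bladder tuft. The gall bladder sums were mostly Lck, also a member of the blood cell kinase list above, at 23.2, 20.3 and 40 CPM. In thymus tuft Lck was at 0.163 to 10.8 CPM. The 2 called higher were Cd4 and Themis, at 1.88 to 9.74 and 0.204 to 12.7 CPM in thymus tuft. In gall bladder tuft these 2 were at 0 to 0.231 and 0 to 0.149 CPM. B cell markers were higher in 2 and neither in 2 of 4, or higher in 0 without gall bladder library 1 or with a minimum of 5 CPM, at 28.8 to 45.3 CPM in thymus tuft and 30.9 to 111 CPM in gall bladder tuft. The gall bladder sums were mostly Cd79b, called in neither direction, at 31.4, 30.9 and 106 CPM. In thymus tuft Cd79b was at 14.7 to 35.6 CPM. Enteroendocrine markers were higher in 10 of 12, or 5 without gall bladder library 3 or 4 and 4 to 12 over the other scalings, filters and fits, with Chga at 68.7, 20.7, 27.2 and 50.4 CPM in thymus tuft and 3.12, 0.438 and 0.496 CPM in gall bladder tuft. Pancreas markers were lower in 1 and neither in 2 of 3, at 10.0 to 44.4 CPM in thymus tuft and 116 to 1068 CPM in gall bladder tuft. The member called lower was the protease gene Ctrb1, at 20.9, 28.9, 6.54 and 42 CPM in thymus tuft and 1068, 581 and 114 CPM in gall bladder tuft, and without gall bladder library 1 its adjusted p in edgeR was 0.070. Of 10 hepatocyte markers 4 were called higher and 1 lower, at 29.2 to 45 CPM in thymus tuft and 120.5 to 195 CPM in gall bladder tuft, and the number higher was 2 without gall bladder library 3 and 1 to 5 over the other scalings, filters and fits. The hepatocyte marker called lower was Ttr, a transport protein of plasma, at 8.52, 8.69, 6.04 and 0.122 CPM in thymus tuft and 194, 120.3 and 146 CPM in gall bladder tuft. Enterocyte markers were lower in 3 and neither in 7 of 10, at 229 to 468 CPM in thymus tuft and 693 to 1204 CPM in gall bladder tuft, and ciliated cell markers higher in 2 and neither in 5 of 7, at 229 to 367 CPM in thymus tuft and 629 to 648 CPM in gall bladder tuft. The ciliated sums of gall bladder tuft were mostly Dnah5, called in neither direction, at 602, 576 and 561 CPM. In thymus tuft Dnah5 was at 80.4 to 172 CPM. The 2 ciliated markers called higher were Dnah9 and Ccdc39, at 59.4 to 82.2 and 3.66 to 7.2 CPM in thymus tuft. In gall bladder tuft these 2 were at 0 to 1.51 and 0 to 0.0512 CPM. Erythroid markers were higher in 2 and neither in 3 of 5, or higher in 0 without gall bladder library 1, at 2.2 to 4.48 CPM in thymus tuft and 0 to 2.52 CPM in gall bladder tuft. Goblet markers were higher in 3 and neither in 5 of 8, at 1684 to 2944 CPM in thymus tuft and 183 to 657 CPM in gall bladder tuft. Genes that cell dissociation is known to induce were called both ways, 5 higher and 5 lower of 21, beside 20.9% higher and 9.74% lower of all genes. Of these genes 9 were lower without gall bladder library 1 or 3, 8 without thymus library 3 or 4 and 4 to 10 over the other scalings, filters and fits. Nr4a1, an immediate early gene, was at 138, 83.4, 128 and 126 CPM in thymus tuft and 251, 859 and 1319 CPM in gall bladder tuft, whereas Hspa1b, a heat shock gene, was at 295, 212, 289 and 286 CPM in thymus tuft and 34.8, 27.8 and 55.9 CPM in gall bladder tuft. Of 26 cell cycle genes 8 were higher and 0 lower, or 4 higher without gall bladder library 1 and 5 without gall bladder library 3 or thymus library 1 or 3, and 5 to 13 over the other scalings, filters and fits. Airway secretory markers were called in neither direction in any of 7 genes, but gall bladder library 1 stood apart, with Scgb1a1, a club cell protein, at 252, 0.329 and 0.695 CPM in gall bladder tuft libraries 1, 3 and 4 and 57.9 to 163 CPM in thymus tuft; without library 1, 5 of the 7 were called higher in thymus tuft.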

How the data were processed

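The values were raw read counts per gene and library, which the authors deposited as whole numbers, 1 table per library. Per the submitters' processing notes, STAR, DESeq2 and the GRCm38 build were used. For the counting program, its strand setting and the annotation, no source used here gives a name. Per the labels' protocols, cells were sorted into lysis buffer, poly(A) RNA was captured and amplified with NuGEN Ovation RNA-Seq V2, and libraries were made with Nextera XT. The labels mention no molecular identifiers, so amplified copies were counted, and counting intervals cover counting error only.

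From the deposited counts, 19850 of 43432 genes were kept by filterByExpr and fitted over all 18 tuft libraries with edgeR 4.0.16 (R 4.3.3) with TMM scaling and the quasi-likelihood F test, without pairing. The contrast was thymus tuft minus gall bladder tuft, and p-values were adjusted by Benjamini and Hochberg over all genes tested. A call took an adjusted p below 0.05 together with a log2 fold change of 1 or more in either direction. Standard errors are the log2 fold change divided by the root of F and are approximate. CPM used TMM-scaled totals. Folds against 0 counts used a floor of 3 counts over the group, and list medians are given a second time with such members at that bound where this moved them. Each thymus and gall bladder library is 1 mouse. The spread behind the p-values was estimated over all tuft libraries, of which the 4 of trachea pooled 4 mice each.

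Symbols came from GENCODE M21, where 42548 identifiers matched. Members of the comparison and the 49 gene lists were chosen with earlier results of these data known. Genes named individually were list members, or, among called genes with at least 20 CPM and no overlap, the 15 largest changes and, with a log2 fold change of at least 2, the 10 highest levels in each direction, with mitochondrial, sex-marking and predicted genes and antigen receptor segments left out of the ranks. Some genes of these lists and ranks are not reported here. Promoters came from RefSeq. The fit was also run on simulated counts whose spread between libraries was set below that seen here. That run therefore says little about the accuracy of the calls in these data. Alternatives were limma 3.58.1, DESeq2 1.42.0, other scalings, filters, thresholds and sample sets, a replicate block, and leaving out each library in turn. Figures used matplotlib 3.10.9.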

Additional observations from a re-analysis of the deposited data

Results flagged for a closer look

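For 190 genes named here, the 4 thymus tuft libraries were searched for a library whose gap to the nearest other took up most of the group's range (Dixon's test at 95%), and 18 genes had one. Chance gives such a library in about 1 of 20 groups, and the 3 gall bladder libraries were too few to search. Library 1 stood apart in 4 genes, library 2 in 3, library 3 in 6 and library 4 in 5, so no library held them all.

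Among immune genes, H2-Ab1 was at 1576 CPM in library 1, against 1987 to 2046 CPM in the others. Ccl22 and Ccl25 were at 581 and 377 CPM in library 3, against 170.3 to 207 and 211 to 235 CPM in the others. Cd274 was at 536 CPM in library 4, against 344 to 376 CPM. All 4 stayed above every gall bladder library in every thymus library. The endothelial genes Cdh5 and Pecam1 were at 3.91 CPM in library 1 and 15.0 CPM in library 4, against 0 to 0.0152 and 0.334 to 1.12 CPM in the others.

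Dclk1 was at 1292 CPM in library 4, against 933 to 991 CPM in the others, and remained under every gall bladder library. Kcnj15 was at 442 CPM in library 4, against 296 to 315 CPM. Aqp3 was at 41.1 CPM in library 2, against 16.3 to 18.2 CPM, and Foxa1 at 97.9 CPM in library 3, against 78.1 to 80.6 CPM. Hspa1b was at 212 CPM in library 2, against 286 to 295 CPM, and Hey1 at 10.9 CPM in library 2, against 17.9 to 19.2 CPM. Dll1 was at 5.48 CPM in library 4, against 2.87 to 3.20 CPM, and Muc4 at 81.3 CPM in library 1, against 46.8 to 51.3 CPM. Ptgs1 and Ptges3 were at 421 and 8.32 CPM in library 3, against 495 to 502 and 12.8 to 13.1 CPM in the others. Sqle was at 130.3 CPM in library 1, against 124.6 to 125 CPM, a narrow range in all. Ildr2, an immunoglobulin-like receptor gene, was at 1.18 CPM in library 3, against 0 to 0.157 CPM. Leaving out the library concerned changed no call of these genes, apart from Cdh5, which was too low to be tested.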

How the results depend on the processing

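The number of genes called higher in thymus tuft, 4141, was 2446 with a minimum of 5 CPM in 3 libraries, where fewer genes were tested, and the number called lower was then 1867. With an adjusted p under 0.01 and a log2 fold change of at least 2, 1751 were higher and 652 lower. Leaving out 1 library at a time gave 2694 to 3760 genes higher and 1601 to 1952 lower, with the fewest higher without gall bladder library 3 and the fewest lower without thymus library 4. The groups share replicate numbers 1, 3 and 4. Same-numbered libraries did not deviate together (correlations of -0.0104, -0.00633 and -0.0007). Organs of 1 mouse need not deviate together, so these values cannot settle whether same-numbered libraries share a mouse. The fit with the replicate block called 3687 genes higher and 1593 lower. limma called 3554 higher and 1815 lower, and DESeq2 4951 and 2060. The median log2 fold change of all genes, 0.38, moved by -0.41 with the minimum of 5 CPM, which left 13513 genes, and by 0.36 with limma. In the main fit, genes whose higher group averaged under 1 CPM had a median of 3.10, and those at 1 to 5 CPM 2.77. The cause of the shifts was not tested. Of the called genes named, 175 in all, 144 had a value and stayed called under each of the 19 alternatives, and 0 changed direction. For 9 there was no value under 1 alternative: Aire, Ccl25, Cd80, Kcnj15 and Pax1 had no adjusted p in DESeq2, and Egfl7, Ins2, Pecam1 and Slc10a2 were not tested with the minimum of 5 CPM. Without each library in turn 171 stayed called, Ctrb1, Tek, Vtcn1 and Vwf being the exceptions. Among genes not called, the log2 difference of Il25 was 0.038 with limma and -0.70 to 0.34 over the fits that left out 1 library, at 0.027 without thymus replicate 4. That of Ptges2 was -2.46 to 0.48 over the same fits, highest without gall bladder replicate 1. That of Spib was 0.080 with RLE size factors and DESeq2 and 0.025 with upper quartile scaling. That of Scgb1a1 was -0.29 to 7.54 over the fits that left out 1 library, highest without gall bladder replicate 1. It was negative without gall bladder replicate 3 (-0.29) or 4 (-0.28). The sign of each of these genes turned at some of the settings given, and the cause was not tested. The number of bitter receptors called higher ranged down to 10 where the minimum of 5 CPM left fewer to test. With 3 gall bladder libraries, levels under about 0.1 CPM lie near the worth of 3 counts, and differences below them were not detectable at this depth.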

Other observations

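Gene families outside the lists were looked at after values had been seen, so their counts are descriptions. Of 48 ribosomal protein genes of the large subunit 16 were lower and 0 higher in thymus tuft, where 9.74% of all genes were lower, with a median log2 fold change of -0.91, and summed levels were 1334 to 1859 CPM in thymus tuft and 2503 to 4877 CPM in gall bladder tuft. Of 32 genes of the small subunit 11 were lower and 0 higher, with a median of -1.13. Of 13 genes of the A subunits of mitochondrial complex I, part of the respiratory chain, 6 were lower and 0 higher, with a median of -1.34, beside a lower share of mitochondrial transcripts in thymus tuft.

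The counts of the next families are to be read beside the shares over all genes tested, 20.9% higher and 9.74% lower. Of 62 interleukin and interleukin receptor genes tested 32 were higher and 3 lower, at summed levels of 2736 to 3477 CPM in thymus tuft and 1478 to 1593 CPM in gall bladder tuft. Of 109 olfactory receptor genes with any count 18 were tested and 10 were higher, with a summed 64.8 to 95 CPM in thymus tuft and 1.41 to 15.1 CPM in gall bladder tuft. Of 7 beta defensin genes tested 5 were higher, and of 10 small proline-rich protein genes, which build the envelope of stratified cells, 8 were higher, at 649 to 1233 CPM in thymus tuft and 16.4 to 165 CPM in gall bladder tuft. Members this low in gall bladder tuft pass the filter largely through thymus tuft, so these counts support nothing further. Close copies within these families may share reads.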
